A study of Mus musculus with 8 samples.

Results

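The acute response of the retina to injury is known for a small set of genes, and 6 of them, Serpina3n, A2m, Edn2, Ednrb, Fgf2 and Gfap, were followed in the retinal pigment epithelium (RPE) of mice that lack the ciliary gene Bbs8. They are 6 of the 31053 genes counted. The 6 were chosen by values of this same contrast of Bbs8-/- with wild type, so their differences are given as a description, without a test. The RNA came from RPE cells isolated at postnatal day 29 from 4 wild type mice and from 4 littermates labelled BBs8 knockout, all on the C57/Bl6 strain and of undetermined sex, with each animal a biological replicate and no treatment. Bbs8 was missing throughout the animal, photoreceptors included, and not in the RPE alone. The QuantSeq 3′ kit, with an input of 30 ng RNA per library, yields close to 1 read per transcript near the poly-A tail. Counts therefore need no scaling by gene length. Counts on genes came to 3093428, 2736947, 2495094 and 2790955 in wild type replicates 1 to 4 and to 2389835, 2722440, 2415310 and 2736289 in Bbs8-/- replicates 1 to 4. Levels are given in CPM, the counts of a gene as a share of all counts in the library after TMM scaling for composition. A floor of 3 counts per library, the level that a count of 0 still allows, lay between 1.02 and 1.23 CPM. Floors and intervals cover counting error only and leave out the spread between animals. Reads were not collapsed to molecules, so the counting error itself may be larger than given.

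Injured or stressed photoreceptors are known to make endothelin 2, which acts on the endothelin B receptor of Müller glia. Müller cells and astrocytes in turn are known for raising the intermediate filament protein GFAP, and basic fibroblast growth factor (FGF2) protects photoreceptors. SERPINA3N is a secreted inhibitor of serine proteases and alpha-2-macroglobulin (A2M) traps proteases of many classes. Of these, SERPINA3N is an acute-phase protein that cytokines acting through gp130 and STAT3 induce.

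The labels were first checked with the targeted gene. Ttc8, the symbol under which Bbs8 is listed, had 105, 142, 144 and 116 counts in wild type replicates 1 to 4 and 15, 5, 14 and 15 in Bbs8-/- replicates 1 to 4. No library went against its label. The log2 fold change was -3.34 (SE 0.29, edgeR quasi-likelihood test, adjusted p = 2.49e-11, lower in 4 of 4 libraries). Which part of the gene the allele removes was not given in the sources used here, so the remaining tags may lie outside it. Libraries of 1 genotype differed by more than sampling noise in every pair, with a chi-square per degree of freedom from 2.81 to 7.06, where noise alone gives about 1. Wild type replicate 1 stood apart, at 5.76 to 7.06 against the other wild type libraries and 2.81 to 3.31 among those, and values without it are given where it matters.

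All 6 genes passed the filter of at least 1 CPM in at least 4 of 8 libraries. Edn2 passed through the Bbs8-/- libraries alone, so that it had to differ, and Gfap reached 1 CPM in only 2 wild type libraries. In 5 of the 6 genes every Bbs8-/- library lay above every wild type library. Over all 12889 tested genes this held for 7.42%, with 8.65% entirely below, and since the choice used this contrast nothing is read from the count. edgeR called 704 tested genes higher (5.46%) and 879 lower (6.82%) in Bbs8-/- RPE, so that 44.5% of its calls were higher, against 60.5% when libraries were scaled by size alone. In Bbs8-/- libraries the order of levels was A2m, Serpina3n, Fgf2, Edn2, Gfap and Ednrb, of which Gfap and Ednrb did not differ beyond their SD. In wild type, A2m led at 109 CPM and was followed by Serpina3n, Fgf2 and Ednrb at 3.79 to 7.06 CPM, where neither Serpina3n and Fgf2 nor Fgf2 and Ednrb differed beyond their SD, then by Gfap about the floor and Edn2 at 0. The plot of levels by library shows how small the spread within a genotype was for Serpina3n and A2m, and how wide for Ednrb and Gfap.

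**Figure D1:**
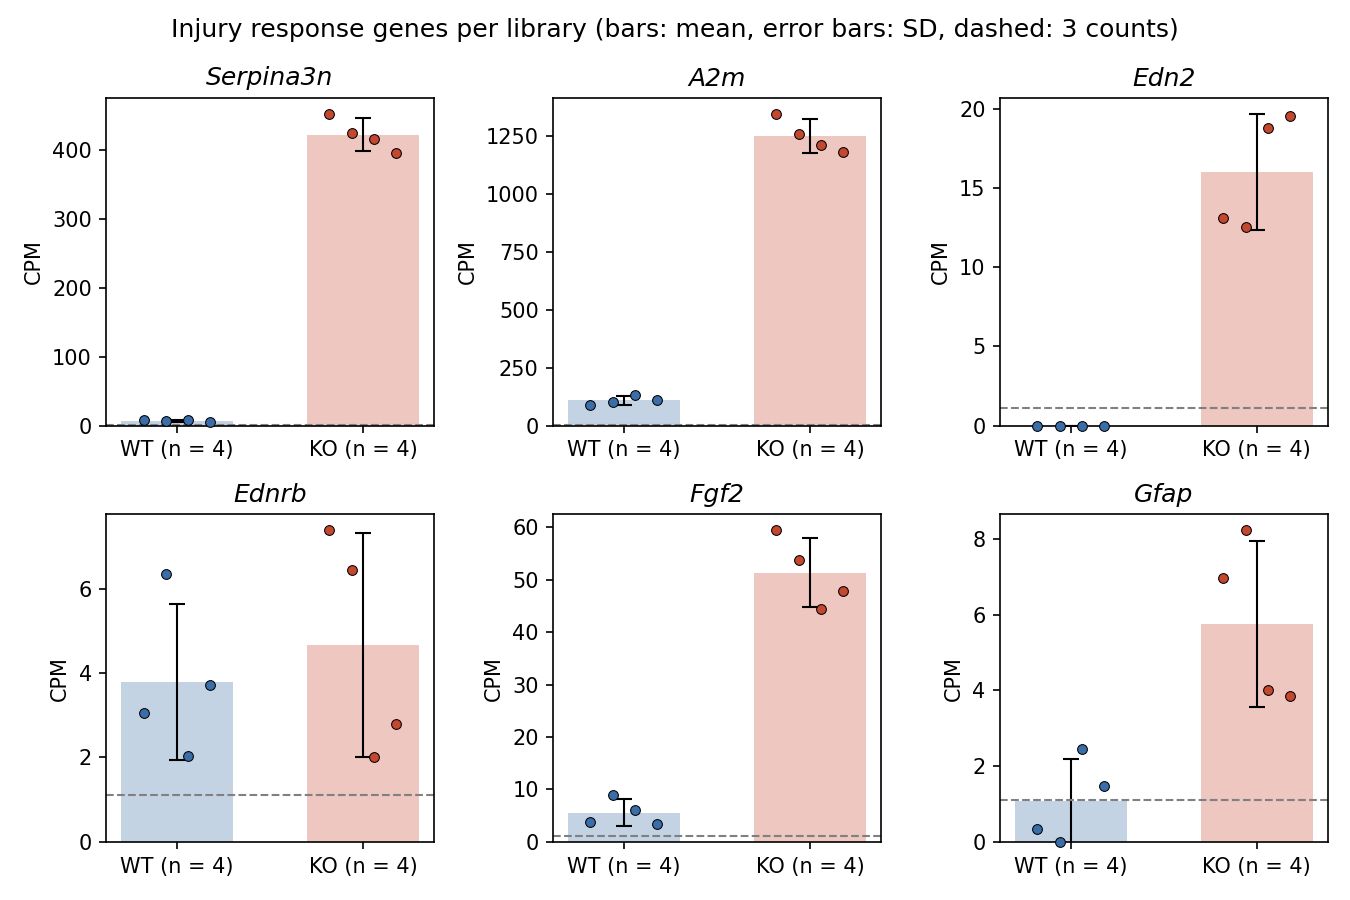
Level of each gene in CPM (linear axes from 0) in the 4 wild type (WT) and 4 Bbs8-/- (KO) libraries; points are libraries, bars means, error bars SD and the dashed line the mean wild type level of 3 counts. The genotypes are apart for 5 genes and overlap for Ednrb, and the wild type libraries lie at 0 for Edn2 and around the floor for Gfap.

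Serpina3n (ENSMUSG00000021091, GRCm38 chr12:104406729-104414329, plus strand) had the largest ratio among the 5 genes with wild type counts. It was counted 24, 17, 21 and 14 times in wild type replicates 1 to 4 and 1105, 1187, 1042 and 1135 times in Bbs8-/- replicates 1 to 4. A low but present level in wild type thus stood against a high and even one in the knockout. The means were 7.06 ± 1.57 CPM (SD, n = 4) and 423 ± 23.7 CPM (SD, n = 4), a ratio of 59.9. The ratio of the summed counts was 59.8, with a 95% exact counting interval of 47.7 to 76.1, and the fitted log2 fold change was 5.90 (SE 0.14). By mean level Serpina3n stood 205th among the tested genes in Bbs8-/- and 9223rd in wild type. Its listed paralogs were close to 0. Serpina3g, with 0 to 7 counts in wild type and 0 to 10 in Bbs8-/- libraries, was the only listed Serpina3 paralog to pass the filter, and Serpina3m, the nearest gene on the side of lower coordinates, had 0 counts in all 8 libraries. Only uniquely mapped reads were counted, so reads that fit several paralogs are not in these values.

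A2m (ENSMUSG00000030111, chr6:121635376-121679227, plus strand) was the most abundant of the 6 in either genotype. Its counts were 270, 275, 328 and 294 in wild type and 3285, 3521, 3028 and 3379 in Bbs8-/- replicates 1 to 4. All 8 values were far above the floor, and the genotypes were well apart. The level moved from 109 ± 18.1 to 1250.4 ± 73.3 CPM (SD, n = 4 each), a ratio of 11.4, with a log2 fold change of 3.52 (SE 0.10). Between Bbs8-/- animals A2m varied by 5.87% and Serpina3n by 5.59% (coefficient of variation), where counting alone gives 1.74% and 2.99%. A2m took rank 41 in Bbs8-/- libraries and rank 1543 in wild type. Pzp, its closest relative, had at most 5 counts in a library, and Mug1 and Mug2 had 0. Lrp1, the receptor that clears A2M-protease complexes, was at 330 ± 43.1 CPM in wild type and 374 ± 15.6 CPM in Bbs8-/- (SD, n = 4 each, log2 fold change 0.18, SE 0.09, edgeR adjusted p = 0.232).

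Other protease inhibitors were called in both directions. The 67 listed were serpins, macroglobulins, TIMPs, cystatins and related genes. Lrp1 and Lrpap1 were counted among them, though they are not inhibitors, and were not called. Of the 67, 64 were in the files, 21 passed the filter, 3 were higher and 1 was lower in Bbs8-/- RPE. The median log2 fold change was -0.05, against 0.02 over all tested genes, of which 5.46% were higher and 6.82% lower. Spint2, a membrane-bound Kunitz inhibitor, rose from 21.8 ± 5.78 to 42.8 ± 9.51 CPM (log2 fold change 0.97, SE 0.23, edgeR adjusted p = 0.00253, higher in 4 of 4 libraries) and by 0.79 without wild type replicate 1. The cysteine protease inhibitors cystatin B (Cstb, 0.64) and cystatin C (Cst3, 0.39) were the other genes called higher, with these log2 fold changes. Cstb lost its call without Bbs8-/- replicate 3 (0.48). Cst3 rested in part on wild type replicate 1, without which the log2 fold change was 0.22, and DESeq2 did not call it (0.40). Serping1, the C1 inhibitor, fell from 64.1 ± 7.44 to 42.5 ± 4.78 CPM (log2 fold change -0.59, SE 0.17, edgeR adjusted p = 0.0129), a call lost without wild type replicate 3 (-0.51). Timp3, abundant in RPE, stayed uncalled at 5001 ± 98.8 and 4750 ± 149 CPM.

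The ligand gene Edn2 (ENSMUSG00000028635, chr4:120161206-120167360, plus strand) was counted only in the knockout libraries. It had 0 counts in all 4 wild type libraries and 32, 35, 47 and 56 in Bbs8-/- replicates 1 to 4. Every Bbs8-/- library was thus well above 3 counts, while no tag was seen in wild type. The Bbs8-/- mean of 16.0 ± 3.69 CPM (SD, n = 4) was at least 14.3-fold higher than the wild type floor of 1.12 CPM, a lower bound of 3.84 on the log2 scale. A count of 0 allows up to that floor in each wild type library. A fitted fold change is not given because it depends on the added prior count.

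The receptor gene Ednrb (ENSMUSG00000022122, chr14:103814625-103844402, minus strand) showed no difference that was detectable at this depth. The counts were 9, 17, 5 and 10 in wild type and 18, 18, 5 and 8 in Bbs8-/- replicates 1 to 4. Both genotypes held high and low libraries, and they overlapped over almost their whole range. The means were 3.79 ± 1.84 and 4.66 ± 2.66 CPM (SD, n = 4 each), the log2 fold change was 0.29 (SE 0.62), and the ratio of summed counts was 1.22 with a 95% counting interval of 0.786 to 1.89. Without Bbs8-/- replicate 1 the log2 fold change was -0.01.

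The remaining endothelin genes included a single call. Of 14 listed genes 11 passed the filter, of which edgeR called 1 higher and 0 lower, also 1 and 0 at an unadjusted p under 0.05 and by DESeq2, with a median log2 fold change of 0.15 against 0.02 over all tested genes. Over all tested genes 5.46% were higher and 6.82% lower, so 1 of 11 is close to the background. The single call was Gnaq, a G protein subunit downstream of many receptors (log2 fold change 0.42, SE 0.14, edgeR adjusted p = 0.0453). This call was lost when any 1 library other than Bbs8-/- replicate 4 was left out, with values from 0.36 to 0.44, and also with no filter on low counts (0.42) or with a replicate block (0.42). Edn3 was the most abundant endothelin ligand and had like levels of 79.7 ± 3.48 and 80.2 ± 9.91 CPM. Edn1 was uneven, with 0, 3, 5 and 1 counts in wild type and 0, 14, 0 and 18 in Bbs8-/- libraries (log2 fold change 1.68, SE 1.10, edgeR adjusted p = 0.388). Ednra, the other receptor, had 6 to 14 counts in wild type and 2 to 12 in Bbs8-/- libraries (-0.62, SE 0.74). The converting enzyme Ece1 was at 33.3 ± 5.24 and 30.8 ± 8.59 CPM, and Ece2 did not pass the filter.

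Fgf2 (ENSMUSG00000037225, chr3:37348346-37410108, plus strand) was counted 11, 24, 15 and 9 times in wild type and 145, 150, 111 and 137 times in Bbs8-/- replicates 1 to 4. The lowest knockout library lay clearly above the highest wild type one. The means were 5.54 ± 2.59 and 51.4 ± 6.65 CPM (SD, n = 4 each), a ratio of 9.28. The summed counts gave 9.36 with a 95% counting interval of 7.15 to 12.5, and the log2 fold change was 3.21 (SE 0.27). Genes on the opposite strand overlap Fgf2 at either end, and whether the counting used strand was not given in the sources used here, so reads on overlaps cannot be told apart. Nudt6, which shares 640 exon bases with Fgf2 on the opposite strand, had 15, 3, 9 and 9 counts in wild type and 9, 0, 9 and 10 in Bbs8-/- libraries. It was thus far below Fgf2 in the knockout and did not share its difference (log2 fold change -0.30, SE 0.80, edgeR adjusted p = 0.878).

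The antisense gene at the other end was counted only in the knockout. Fgf2os, a noncoding gene that overlaps the start of Fgf2 on the opposite strand and shares 0 exon bases with it, had 0 counts in every wild type library and 22, 30, 21 and 42 in Bbs8-/- replicates 1 to 4. Its Bbs8-/- mean of 10.7 ± 2.82 CPM was at least 9.57-fold higher than the wild type floor. Like Edn2 it passed the filter through the Bbs8-/- libraries alone and had to differ, so no test is given. Genes next to the pair were at low levels. Bbs12, another Bardet-Biedl syndrome gene and the nearest that does not overlap Fgf2 on the side of lower coordinates, was at 4.12 ± 1.83 and 7.79 ± 3.94 CPM (log2 fold change 0.90, SE 0.52, edgeR adjusted p = 0.302). Spata5, on the other side, was at 5.07 ± 1.96 and 3.62 ± 1.28 CPM. Neighbours of the other 5 genes were also uncalled or did not pass the filter, among them Iqsec3 beside A2m, Hivep3 beside Edn2 and Slain1 beside Ednrb, which passed it and were not called.

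Of 52 listed FGF genes 51 were in the files and 30 were tested, of which 3 were higher (10%) and 2 lower (6.67%), with a median log2 fold change of 0.13. Over all tested genes the shares were 5.46% and 6.82% and the median 0.02, so the counts are near the background. Fgfr1, a receptor for FGF2, rose from 66.9 ± 13.5 to 113 ± 17.6 CPM (log2 fold change 0.75, SE 0.15, edgeR adjusted p = 0.000347, higher in 4 of 4 libraries) and by 0.61 without wild type replicate 1, the lowest library. Fgfr2 (0.19), Fgfr3 (0.47) and the ligand Fgf1 (0.29) did not pass the threshold, and Fgfr4 had at most 4 counts. Genes that FGF signals through ERK are known to induce did not all move in the same direction. Egr1 rose from 287 ± 25.4 to 431 ± 21.7 CPM (log2 fold change 0.59, SE 0.09, edgeR adjusted p = 3.52e-06), whereas Ccnd1, the cyclin D1 gene, fell from 282 ± 22.9 to 167 ± 7.45 CPM (-0.76, SE 0.10, edgeR adjusted p = 1.84e-07). The calls for Dusp6 and Etv5 were less stable. Dusp6 (0.29, higher) lost its call without wild type replicate 1, 2 or 3 or Bbs8-/- replicate 2, 3 or 4 (0.23 to 0.30), and Etv5 (-0.54, lower) without wild type replicate 2 or 4 or Bbs8-/- replicate 3 or 4 (-0.54 to -0.42) and on library size alone (-0.45).

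**Figure D2:**
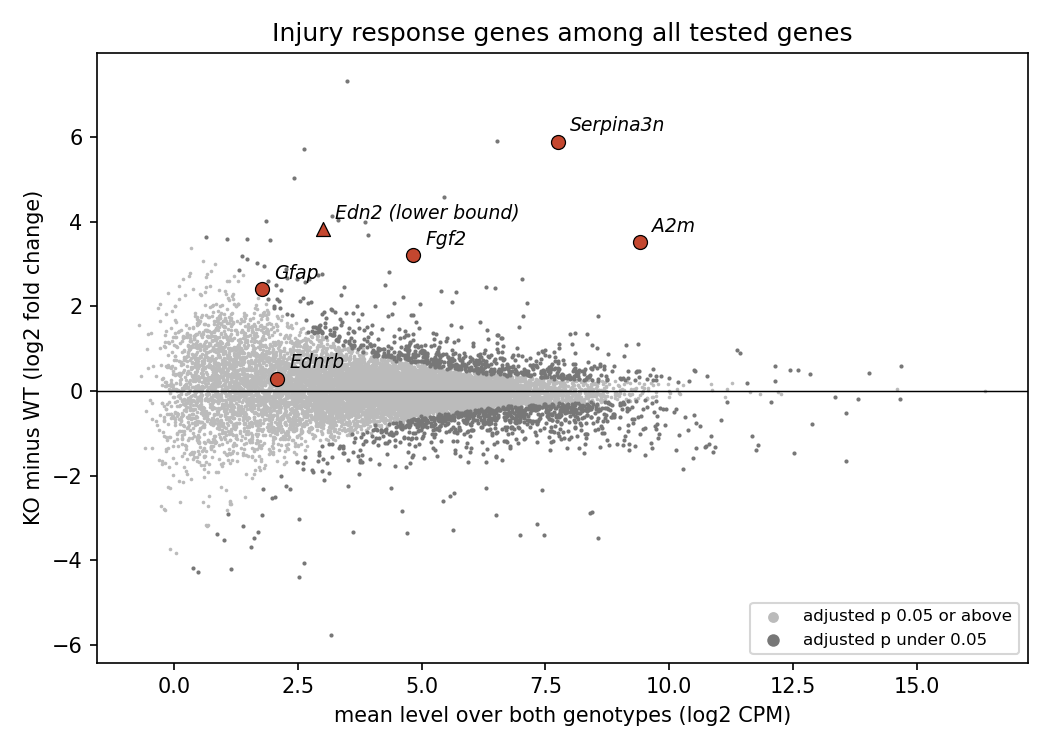
Log2 fold change of Bbs8-/- (KO) minus wild type (WT) against the mean level in log2 CPM for the tested genes, with the 6 injury response genes in red and the lower bound of 3.84 for Edn2 as a triangle; other genes at 0 in all libraries of a genotype are left out. Serpina3n (5.90) and A2m (3.52) lie high at high levels, Gfap (2.41) and Ednrb (0.29) at low levels.

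The plot of all tested genes shows Serpina3n and A2m far from most other genes of their level. Gfap lies among many genes of low counts with widely scattered fold changes. The 6 genes were chosen by this contrast, and C4b, given below, had a log2 fold change (5.91) like that of Serpina3n (5.90).

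Gfap (ENSMUSG00000020932, chr11:102887336-102900912, minus strand) was near the limit of counting. It had 1, 0, 6 and 4 counts in wild type and 17, 23, 10 and 11 in Bbs8-/- replicates 1 to 4. All knockout libraries were above the floor, and wild type replicates 1 and 2 were below it. The means were 1.07 ± 1.12 and 5.77 ± 2.19 CPM (SD, n = 4 each). The ratio of the summed counts was 5.64 with a 95% counting interval of 2.94 to 11.9, and the log2 fold change was 2.41 (SE 0.80). It ran from 2.01 without wild type replicate 2 to 3.15 without wild type replicate 3.

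Other genes of reactive glia and intermediate filaments, 45 listed and 31 tested, held 3 higher (9.68%) and 2 lower (6.45%) in Bbs8-/-, with a median log2 fold change of 0.21. These shares too are near the 5.46% and 6.82% over all tested genes, where the median was 0.02. Vim, the filament partner of GFAP, was at 114 ± 22.8 and 100.5 ± 22.8 CPM (log2 fold change -0.18, SE 0.15, edgeR adjusted p = 0.518), and Nes had at most 4 counts in a library. Levels in the shared set of reactive astrocyte genes ranged widely, from Osmr and Vim at the upper end to Lcn2 at 2.95 ± 1.89 and 3.48 ± 2.14 CPM, Cd44 at 4.97 ± 0.918 and 4.07 ± 2.55 CPM and Timp1 and Cxcl10 below the filter. The listed sets of A1 and A2 astrocytes held 1 higher and 1 lower of 10 tested and, for A2, 0 of 7 in either direction by edgeR and DESeq2; without adjustment of p, 1 was higher and 0 lower. Synm, the synemin gene, fell from 34.1 ± 8.76 to 15.9 ± 5.23 CPM (log2 fold change -1.09, SE 0.26, edgeR adjusted p = 0.00298), and Serping1, also in this list, fell as given above. The genes called higher were Osmr, Fbln5 (0.47) and Nefm (1.82). The call for Nefm was lost with a replicate block (1.69) and without wild type replicate 1, 2 or 3 or Bbs8-/- replicate 3 or 4 (1.38 to 1.79).

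Signalling by LIF and other cytokines through gp130 is known to act upstream of Gfap and of Serpina3n. Of 25 genes listed for it, 18 were tested, 6 were higher (33.3%) and 2 lower (11.1%), with a median log2 fold change of 0.48, against 5.46%, 6.82% and 0.02 over all tested genes. The 6 became 4 without wild type replicate 1 or 3 or Bbs8-/- replicate 3 or 4, and 5 without any other library, with DESeq2 or with a replicate block. The oncostatin M receptor gene Osmr had 106, 153, 147 and 161 counts in wild type and 534, 620, 620 and 610 in Bbs8-/- replicates 1 to 4. It rose from 53.2 ± 11.6 to 226 ± 15.4 CPM (log2 fold change 2.09, SE 0.13, edgeR adjusted p = 3.36e-15) and by 1.93 without wild type replicate 1, the lowest library. Stat3 (1.34), its feedback inhibitor Socs3 (1.32) and its target Cebpd (1.44) rose with no overlap between genotypes. Junb (0.34, edgeR adjusted p = 0.0301) was also called higher and was not followed under the alternatives. The shared receptor gene Il6st (0.41, edgeR adjusted p = 0.0475) lost its call without wild type replicate 1, 3 or 4 or Bbs8-/- replicate 1, 3 or 4 (0.30 to 0.45), with DESeq2 (0.41) and with a replicate block (0.41). Jak1 (-0.61) and Pias3 (-0.98) fell, and Lif had 1 count in all 8 libraries together. The plot of the 5 lists shows, for each list, how many genes lie near 0 and which of the others passed the threshold.

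**Figure D3:**
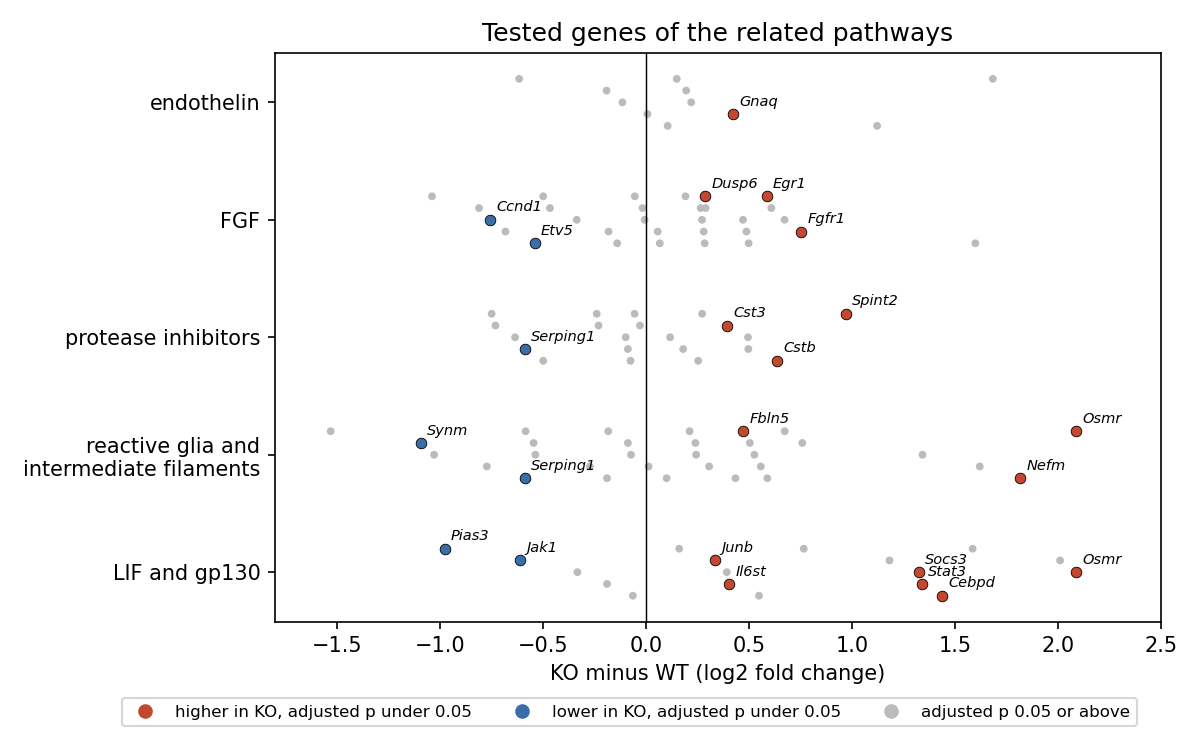
Log2 fold change of Bbs8-/- (KO) minus wild type (WT) for each tested gene of the 5 lists, 1 point per gene, with genes past an adjusted p of 0.05 named in red (higher) or blue (lower). In the LIF and gp130 list Osmr (2.09), Cebpd (1.44), Stat3 (1.34) and Socs3 (1.32) passed at the right, among genes of like fold change that did not pass, and in the endothelin list 1 of 11 genes passed.

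Since 5 of the genes were high in the same libraries, their promoters are shown, as far as the RefSeq table (GRCm38.p6) holds them, which it did for 5 of the 6 and not for A2m. Each runs from 250 bases before the start site to 50 after it, 5′ to 3′ on the strand of the gene. The start site is that of the RefSeq table and can differ from the gene limits given above. The windows of Gfap, Ednrb and Fgf2 lie inside those limits. Capitals mark matches, on either strand, to TTCNNNGAA (STAT factors), TGANTCA (AP-1) or ACGTG (hypoxia-inducible factors). Serpina3n lies at chr12:104406458-104406757 on the plus strand, Edn2 at chr4:120160956-120161255 on the plus strand, Fgf2 at chr3:37348403-37348702 on the plus strand and Gfap at chr11:102897151-102897450 on the minus strand.
Serpina3n: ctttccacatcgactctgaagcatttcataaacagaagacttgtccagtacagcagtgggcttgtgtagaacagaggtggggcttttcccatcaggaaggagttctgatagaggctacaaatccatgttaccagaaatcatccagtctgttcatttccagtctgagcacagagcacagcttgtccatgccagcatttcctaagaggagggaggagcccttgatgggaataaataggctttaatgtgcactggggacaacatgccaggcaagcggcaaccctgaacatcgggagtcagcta
Edn2: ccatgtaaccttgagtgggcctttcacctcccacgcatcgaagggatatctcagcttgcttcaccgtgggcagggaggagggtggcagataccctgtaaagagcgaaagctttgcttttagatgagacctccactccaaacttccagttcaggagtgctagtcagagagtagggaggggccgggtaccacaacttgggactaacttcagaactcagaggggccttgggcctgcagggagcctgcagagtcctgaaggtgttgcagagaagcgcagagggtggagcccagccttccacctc
Fgf2: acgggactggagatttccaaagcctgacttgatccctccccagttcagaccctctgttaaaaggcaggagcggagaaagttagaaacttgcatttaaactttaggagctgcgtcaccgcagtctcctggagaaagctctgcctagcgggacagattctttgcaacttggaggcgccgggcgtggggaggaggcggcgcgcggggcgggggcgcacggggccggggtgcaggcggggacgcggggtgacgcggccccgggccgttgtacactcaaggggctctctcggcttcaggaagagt
Gfap: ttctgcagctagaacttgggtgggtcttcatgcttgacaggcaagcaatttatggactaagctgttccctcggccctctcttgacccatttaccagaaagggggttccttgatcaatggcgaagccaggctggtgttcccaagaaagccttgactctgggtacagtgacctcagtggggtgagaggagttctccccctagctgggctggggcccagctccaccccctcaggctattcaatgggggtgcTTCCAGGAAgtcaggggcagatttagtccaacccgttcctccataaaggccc

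Among the promoters found, Gfap alone held a match, to TTCNNNGAA at bases 249 to 257, across the start site, and it overlapped no other motif. The other promoters shown, and that of Ednrb at chr14:103843652-103843951 on the minus strand, held none of the 3 motifs in this window. Among 32817 promoters of 300 bases, 8.29% held TTCNNNGAA, 7.81% TGANTCA and 19.6% ACGTG. A match or its absence is a description of these letters only. The Fgf2 promoter shown lies inside Fgf2os, which the annotation places at chr3:37335332-37349740 on the minus strand.

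The tested genes whose profiles came nearest to each of the 6 were found by the root mean square difference, over the 8 libraries, of log2 CPM less the wild type mean. A prior count of 2 was added before taking logs, and it shrinks the differences of genes with few wild type counts. The distances therefore depend on it wherever such a gene is compared, above all for Edn2, Krt5 and Fgf2os with 0 counts in wild type and Krt15 with 1, but also for Gfap and its neighbour Bbc3, for Lad1 and for Kcnab1, and these places in the order are no measured likeness. C4b, a complement component, was nearest to Serpina3n (0.36), with 3.02 CPM in wild type and 182 CPM in Bbs8-/- on average and a counting ratio of 61.0 (95% interval 43.0 to 89.4). Krt15 (0.81) and Edn2 (0.98) followed at some distance. With that prior count, nearest to Edn2 were the epithelial keratin genes Krt5 (0.29), at 0 counts in wild type and at least 12.5-fold above the floor in Bbs8-/-, and Krt15 (0.30), with 1 count in wild type and 239 in Bbs8-/- libraries in all (counting ratio 243, 95% interval 43.2 to 9641). Fgf2os (0.46) came next. Krt5, Krt15 and Lad1 are among the ocular surface markers given below. The profile of A2m was met most closely, with the prior count, by Lad1 (0.38), Fgf2os (0.39) and the potassium channel subunit gene Kcnab1 (0.42), and that of Fgf2 by A2m (0.45), Lad1 (0.52) and Gm12802 (0.54). Gfap, whose log2 fold change went from 2.41 to 1.86 at that prior count, was followed by Bbc3 (0.42), Hey2 (0.45) and Siae (0.45). Ednrb, with hardly a difference to match, had Gnmt (0.21), Creb3l1 (0.23) and Mutyh (0.27) next to it.

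Markers of several cell types moved with genotype. Their counts stand beside 5.46% higher and 6.82% lower over all tested genes. In bulk RNA, fewer cells of a type and less RNA per cell cannot be told apart. Photoreceptor markers, 13 lower and 4 higher of 18 tested, summed to 60319, 55923, 56898 and 58882 CPM in wild type and to 23710, 23421, 23134 and 23593 CPM in Bbs8-/- replicates 1 to 4, a ratio of means of 0.405. The 4 higher were all cone genes, among them Gnat2 (0.70 on the log2 scale) and Pde6h (1.21), which add little to the sum, while the cone gene Arr3 was not called (-0.13), so the fall of the sum does not describe these cone markers. Lens markers, 12 of 12 lower, fell from sums of 3039 to 3321 CPM to sums of 420.0 to 470.5 CPM. Crygb was the most abundant of them in wild type and Cryba1 (83.9 CPM) in Bbs8-/- libraries. Erythrocyte markers, 5 of 7 lower, with Hbb-bs the most abundant, fell from 5165 to 5722 CPM to 1986 to 2221 CPM. Ocular surface epithelium went the other way. Of its 7 tested markers 4 were higher, but Krt5, Krt14 and Krt15 among them passed the filter through the Bbs8-/- libraries alone and had to differ, which leaves Lad1. The markers summed to 64.3, 47.0, 44.6 and 55.4 CPM in wild type and 135, 141, 156 and 123 CPM in Bbs8-/- replicates 1 to 4, with Perp the most abundant (not called) and Krt12, which marks the cornea, at 0 in all libraries. RPE markers, 2 higher and 3 lower of 12, summed to 40913, 39945, 40970 and 40996 CPM in wild type and 52135, 48293, 51075 and 49710 CPM in Bbs8-/- replicates 1 to 4, with Ttr the most abundant at 20936 and 31743 CPM, and the labelled tissue was thus present in all libraries. Ttr gained more than the whole sum, whose mean went from 40706 to 50303 CPM, so that the other RPE markers together were lower.

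Against the same 5.46% and 6.82% over all tested genes, Müller glia markers, 6 of 12 higher and 0 lower by edgeR (9 and 0 at an unadjusted p under 0.05, 5 and 0 by DESeq2), summed to 14138, 13450, 12753 and 13536 CPM in wild type and 16417, 16889, 17451 and 16642 CPM in Bbs8-/- replicates 1 to 4. The ratio of the means was 1.25, and the median log2 fold change of the list 0.50. Clu, the most abundant, rose by 0.50 on the log2 scale (edgeR adjusted p = 3.66e-10), Glul by 0.51, Dkk3 by 0.83, Sox9 by 0.32 and Apoe by 0.24, and Rlbp1, at 0.04, also stands in the RPE list. Crym (1.09) lost its call when any 1 library other than Bbs8-/- replicate 3 was left out (0.86 to 1.27), with DESeq2 (1.10), with a replicate block (1.10), with no filter on low counts (1.08) and with TMM scaling that left out photoreceptor, lens and erythrocyte markers (1.09). The more specific Aqp4 and Kcnj10 were low and uneven in Bbs8-/- libraries and were not called. Aqp4 had 1, 3, 4 and 8 counts in wild type and 25, 6, 3 and 28 in Bbs8-/- libraries. Kcnj10 had 1, 6, 3 and 0 against 0, 9, 7 and 16 counts. Slc1a3, also uncalled, was at 8.45 ± 2.44 CPM in wild type and 15.0 ± 5.70 CPM in Bbs8-/- libraries (edgeR adjusted p = 0.140). Clu alone held 4626 and 6530 CPM of the sum. The RNA came from isolated RPE, and which cells carried this sum was not tested, so it is not assigned to Müller glia. Astrocyte markers, 1 higher and 2 lower of 6 tested, summed to 456, 496, 505 and 501 CPM in wild type and 482, 499, 543 and 506 CPM in Bbs8-/- replicates 1 to 4, with Gja1 the most abundant (0.56) and S100b (-1.06) and Slc1a2 (-0.58) lower. Pax2, which marks retinal astrocytes, had at most 1 count in a library. The part of any of these cell types in the levels of the 6 genes was not tested.

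In the remaining lists few markers were called, and with 5.46% higher and 6.82% lower over all tested genes, counts of 0 or 1 in lists of this size are near the background. Of 13 tested microglia and macrophage markers edgeR called 0 higher and 1 lower (0 and 2 at an unadjusted p under 0.05, 0 and 1 by DESeq2), with sums of 383 to 497 CPM in wild type and 337 to 388 CPM in Bbs8-/- libraries and Csf1r the most abundant. Neutrophil and lymphocyte markers reached at most 2.98 CPM in sum, and Ly6g, Cd79a and Gzmb had 0 counts in all libraries. Vascular markers had 0 calls by edgeR, at an unadjusted p under 0.05 and by DESeq2, among 8 tested for endothelium (ratio of summed levels in Bbs8-/- to wild type 1.17, Kdr the most abundant) and 10 for pericytes and smooth muscle (0.961, Rgs5). Schwann cell and oligodendrocyte markers (6 tested, 1.08, Sox10) had 0 calls by edgeR, also at an unadjusted p under 0.05, and 1 lower by DESeq2. Fibroblast markers held 2 lower of 8 (25%, ratio of summed levels 0.842). Dcn was the most abundant of them in Bbs8-/- libraries (407 CPM) and Col1a2 in wild type (424 CPM). Melanocyte markers held 2 higher of 7 (28.6%, 0.991, Dct). Dct and Mitf of this list also stand in the RPE list and were not called, so the sum is not assigned to melanocytes. The fibroblast and melanocyte shares lay above those over all tested genes. DESeq2 gave the same counts, and before adjustment of p 4 fibroblast markers were lower and 4 melanocyte markers higher. Markers of inner retinal neurons held 1 lower of 9 (0.948, Slc6a9). All these sums overlapped between genotypes, as the plot of marker sums shows beside the photoreceptor, lens and erythrocyte sums, which lie far apart.

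**Figure D4:**
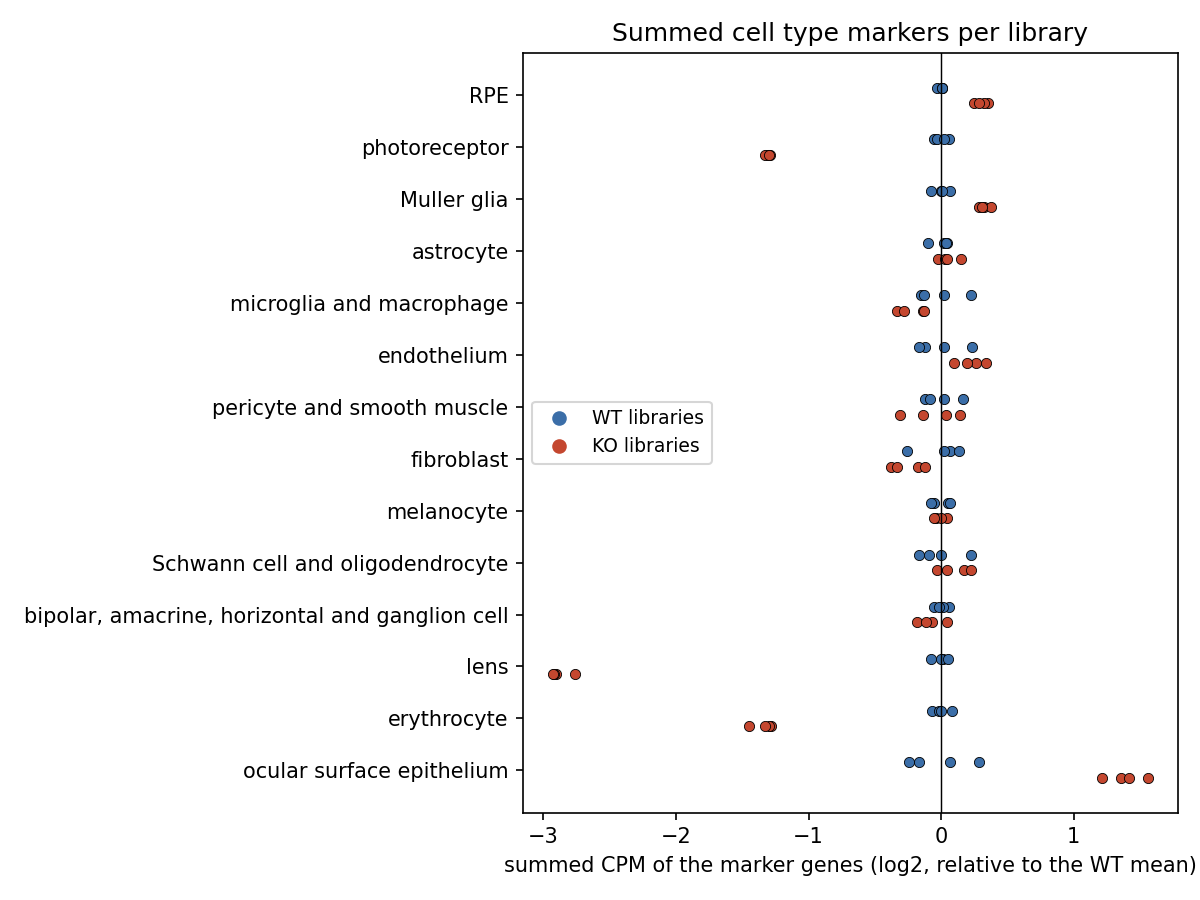
Summed CPM of each list of cell type markers in each library, on a log2 scale relative to the wild type mean (WT blue, KO red, 4 libraries each), without the neutrophil and lymphocyte list, whose sums lie near 0. Photoreceptor, lens and erythrocyte sums lie far to the left in all 4 Bbs8-/- libraries, ocular surface sums to the right, and Müller glia and RPE sums slightly to the right, the latter through Ttr.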

How the data were processed

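The deposited counts were made by the authors, who trimmed single-end reads of 100 bp with BBDuk, aligned them with STAR to mm10 and counted uniquely mapped reads per Ensembl gene with htseq-count; the strand setting was not given in the sources used here. Lines that name no gene held 50.95% to 54.2% of the reads in a library and were left out. Symbols and positions came from GENCODE annotation of the same build but a later release than the authors used, which matched 30934 of 31053 gene IDs. Genes that reached 1 CPM in 4 or more libraries were tested, TMM-scaled, with the quasi-likelihood test of edgeR 4.0.16 (limma 3.58.1, R 4.3.3), 4 against 4 libraries, two-sided, with Benjamini-Hochberg adjustment over all 12889 genes and a threshold of 0.05. Ratios of summed counts have exact 95% intervals, and folds against 0 counts use a floor of 3 counts per library. Likeness of profile is the root mean square difference of log2 CPM, with a prior count of 2, from the wild type mean over 8 libraries, and the 3 nearest genes are named. Also named are the partners of the 6 genes, neighbours on the chromosome, glial markers past the threshold and the most abundant marker of each cell type. So are the up to 5 genes with the largest change past the threshold in each direction of each list. Other genes (Timp3, Lcn2, Cd44, Timp1, Cxcl10, Krt12, Aqp4, Kcnj10, Slc1a3, Pax2, Rlbp1, Mitf, Arr3, Gnat2, Pde6h, Krt14, Junb, Lrpap1, Cryba1, Col1a2, the paralogs of Serpina3n and A2m and markers at 0) were named after their values were seen. Some named items are not reported here. Genes in several lists of a group were counted once. The 6 genes and the lists were chosen with earlier results of these data known. The fit was tested on simulated data. Alternatives were other scalings, other filters, DESeq2 1.42.0, a replicate block, another prior count and each library left out.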

Additional observations from a re-analysis of the deposited data

Results flagged for a closer look

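In 183 groups of 4 libraries, 15 values (8.20%) stood far from the other 3 of their genotype, where chance alone picks about 1 in 20 groups. In wild type replicate 1, Fgfr1 was at 46.7 CPM (72.0 to 74.8 in the others), Vim at 80.2 (123 to 127), Osmr at 35.9 (57.1 to 60.1), Spint2 at 13.2 (23.8 to 25.4) and Jak1 at 187 (153 to 158). This is the library that stood apart across all genes. In wild type replicate 2 the RPE markers summed to 39945 CPM (40913 to 40996) and the neutrophil and lymphocyte markers to 2.98 CPM (1.02 to 1.23). In wild type replicate 3, Serping1 was at 75.2 CPM (59.5 to 61.2) and Sox9 at 442 CPM (489 to 498). Krt15 was at 0.372 CPM in wild type replicate 4, a single count, and at 0 in the others.

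In Bbs8-/- replicate 1, Csf1r was at 235 CPM (270.0 to 274 in the others). Nudt6 had 0 CPM in Bbs8-/- replicate 2 (3.49 to 3.69). In Bbs8-/- replicate 3, Iqsec3 was at 9.20 CPM (2.80 to 3.58), Clu at 6787 CPM (6436 to 6460) and the lens markers summed to 470.5 CPM (420.0 to 427). None of these values belongs to the 6 injury response genes. Outside the counted genes, the share of reads that fell in no annotated gene averaged 20.2% in Bbs8-/- libraries and 17.5% in wild type (17.0% to 18.4%). What lies behind these values was not tested.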

How the results depend on the processing

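Among the genes followed under the alternatives, no direction that passed the threshold reversed. The log2 fold changes of the 6 genes moved by less than the spread between replicates under each alternative run, and with each library left out in turn they ran from 5.77 to 5.99 for Serpina3n, 3.44 to 3.62 for A2m, 3.73 to 3.94 for the lower bound of Edn2, -0.01 to 0.64 for Ednrb, 3.03 to 3.54 for Fgf2 and 2.01 to 3.15 for Gfap. The bound of Edn2 was not computed with a replicate block or a prior count of 2. With 1 library left out, 541 to 641 genes were higher and 709 to 857 lower. Library size alone gave 1 lower FGF gene in place of 2 and 4 higher in place of 3. Endothelin genes higher numbered 0 in place of 1 with no filter and with a replicate block. With 1 library left out, endothelin genes higher ran from 0 to 1, FGF genes lower from 1 to 2, protease inhibitors lower from 0 to 1 and reactive glia genes lower from 1 to 2; LIF and gp130 genes higher ran from 4 to 5 in place of 6, reactive glia genes higher from 2 to 4, and FGF genes and protease inhibitors higher each from 2 to 3. Of 1043 alternative values of 70 named genes, 958 kept direction and side of the threshold, 54 no longer passed it, 3 newly passed it and 28, uncalled in either case, changed sign. The cause was not tested.

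No shared deviation was seen between libraries with the same replicate number, which correlated at -0.055, -0.010, 0.005 and -0.010 across 8428 genes. Values near 0 cannot exclude a weak pairing, and which animals were littermates of which was not given in the sources used here. A block for the replicate numbers gave 2.55 for Gfap and 0.24 for Ednrb.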
